A study of Mus musculus with 4 samples.

Results

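First heart field (FHF) cells of the cardiac crescent were selected on 10 heart genes in a single-cell RNA library of EHF mouse embryos. A cell was taken as an FHF cell when it held at least 1 unique molecular identifier (UMI, one captured transcript molecule) in 5 or more of *Myl7*, *Myl4*, *Tnnt2*, *Mef2c*, *Nkx2-5*, *Sfrp5*, *Gata5*, *Smarcd3*, *Rgs5* and *Tnni1*. This rule found 62 of 3494 EHF cells, which is 1.77% (95% exact binomial interval 1.36% to 2.27%), out of 11123 cells in 3 libraries of the series. Since these 10 genes chose the cells, their levels are given as a description, and so are the levels of every other gene in the contrast of FHF cells with the remaining 3432 EHF cells.

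The embryos carried TnEGP-CreERT2/+, in which the streak gene *T* drives a tamoxifen-dependent Cre, together with R26Rtdtomato/R26Rtdtomato, the reporter that Cre turns on. Mothers received tamoxifen at 0.08 mg/bw by oral gavage. EHF embryos were collected at E7+14h after tamoxifen at E7+7h, OB-EB embryos at E7+3h after tamoxifen at E6+21h, and MS-LS embryos at E6+21h after tamoxifen at E6+5h. Embryos of a stage were pooled, so that each stage is 1 library without replicates, and a cell cannot be traced to its embryo.

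Heart muscle precursors leave the primitive streak during gastrulation, migrate to the anterior lateral mesoderm and begin to transcribe genes of the contractile apparatus under factors of the NK2, GATA, MEF2, HAND and T-box families. BMP signals favour this step, whereas canonical WNT signals oppose it.

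The EHF library held 20376539 UMIs, with a median of 5584 per cell (lowest 1004, highest 36920). The MS-LS library held 17966956 UMIs in 3635 cells (median 4251) and the OB-EB library 12181436 UMIs in 3994 cells (median 2620.5). The EHF stage had 2 tables with 0 differing counts, which were used as 1 library. Libraries shared 18 cell barcodes (MS-LS and OB-EB), 12 (MS-LS and EHF) and 14 (OB-EB and EHF), and 0 of them belonged to FHF cells. FHF cells were deeper than the rest of the library, with a median of 7413.5 UMIs (lowest 2574, highest 36920) against 5561.5, and the deepest EHF cell was one of them. A cell of more UMIs passes a rule on detected genes more easily, and the part of depth in the choice is seen below where cells were thinned. Levels are UMIs summed over a group and scaled to 1000000 UMIs of that group (CPM). Intervals on levels are exact Poisson 95% intervals, intervals on shares of cells are exact binomial (Clopper-Pearson) and those on log2 ratios are exact for a ratio of sums. All cover counting error only, and no test was made.

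Rule genes fell off steeply across the library. Of the EHF cells, 2445 held a UMI of 0 rule genes, 712 of 1, 172 of 2, 72 of 3 and 31 of 4. Among FHF cells, 25 held 5 rule genes, 14 held 6, 12 held 7, 8 held 8, 3 held 9 and 0 held all 10. The threshold therefore stood on a slope with no gap, and the 31 cells just outside it were more than the 25 just inside.

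**Figure D1:**
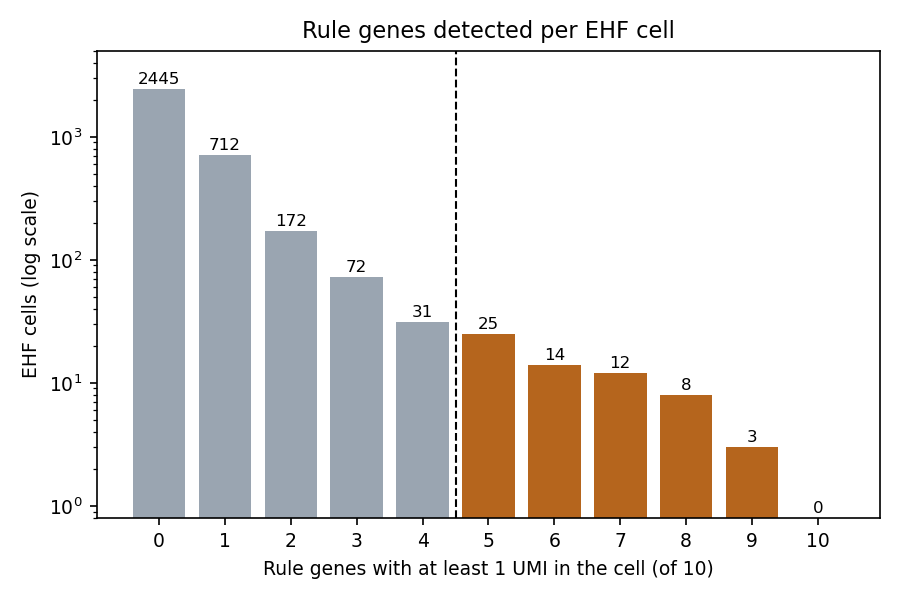
Number of EHF cells (vertical axis, log scale) by how many of the 10 rule genes had at least 1 UMI in the cell (horizontal axis). The dashed line marks the threshold of 5 genes, with the 62 FHF cells to its right in brown; 31 cells stand just outside it and 25 just inside.

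The most abundant rule gene was *Myl7*, the atrial-type regulatory myosin light chain. It stood at 693 CPM in FHF cells (625 to 766) and 47.5 CPM in the other EHF cells, and every FHF cell held it, with 1 to 25 UMIs and a median of 4.5. *Mef2c*, a transcription factor of muscle genes, stood at 253 CPM against 8.27. *Rgs5*, a regulator of G protein signalling, stood at 179 CPM against 8.17 and was found in 53 of the 62 cells. *Smarcd3*, the cardiac subunit of the BAF chromatin remodelling complex, stood at 152 CPM against 16.2. These 4 genes were thus the common part of the rule, each with a UMI in at least 46 FHF cells.

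Apart from *Myl7*, the sarcomere genes of the rule were found in 34 to 36 cells each. *Tnnt2*, cardiac troponin T, stood at 129 CPM in FHF cells (100 to 162) and 4.64 CPM in the others and was found in 35 cells. *Myl4*, an essential myosin light chain, stood at 116 CPM against 2.52 and was found in 36 cells. *Tnni1*, slow troponin I, stood at 114 CPM against 10.7 and was found in 34 cells. The median FHF cell held 1 UMI of each of these.

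The remaining rule genes were sparse. *Gata5*, a GATA factor of the heart and endoderm, stood at 63.3 CPM against 1.06 and was found in 26 cells. *Sfrp5*, a secreted WNT inhibitor, stood at 63.3 CPM against 1.77 and was found in 24 cells. *Nkx2-5*, the homeobox factor of heart progenitors, stood at 56.1 CPM (38.1 to 79.6) against 2.32 and was found in 22 cells. The other FHF cells had no *Nkx2-5* UMI at this depth, so the rule did not require the gene that most often names these cells.

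Free RNA in droplets gives low shares of cells with a UMI in any cell type, and extraembryonic (Exe) ectoderm cells, chosen as those with at least 5 of 10 trophoblast markers, served as a background at a similar depth. The 355 Exe ectoderm cells had a median of 7516 UMIs against 7413.5 in FHF cells. In them *Myl7* was found in 3.38% of cells, *Smarcd3* in 1.13%, *Mef2c* in 0.563%, *Rgs5* in 0.563% and *Tnnt2* in 0.282%, while *Myl4* and *Sfrp5* were found in 0 of 355 cells, which allows a share of up to 0.845%. The shares in FHF cells stood far above this background, as the choice of cells requires.

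**Figure D2:**
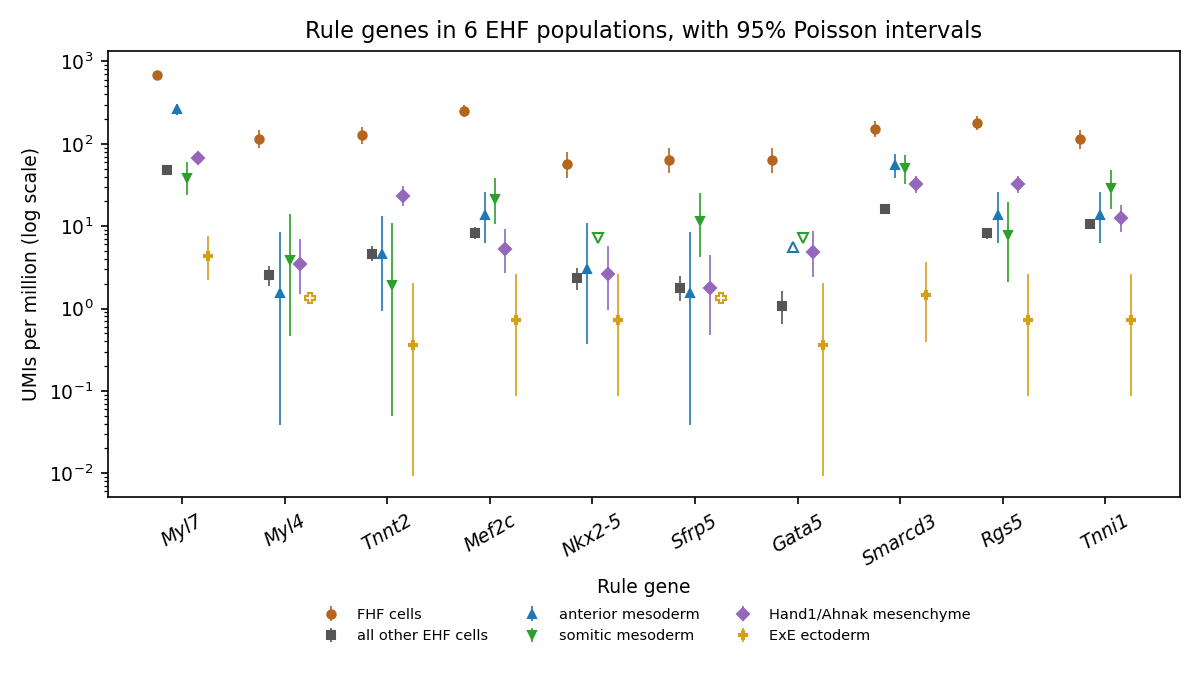
CPM (vertical axis, log scale) of each rule gene (horizontal axis) in FHF cells, all other EHF cells, 3 mesoderm populations and Exe ectoderm, with exact Poisson 95% intervals; open markers give the upper limit where 0 UMIs were counted. *Myl7* reached 693 CPM in FHF cells, 264 in anterior mesoderm and 4.34 in Exe ectoderm.

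Each rule gene was also read in cells chosen without it, as those with 5 or more of the other 9 genes. *Myl7* was found in 37 of the 37 cells that the other 9 genes chose (100%, 90.5% to 100%) and in 15.6% of the rest. *Rgs5* was found in 35 of 44 such cells (79.5%), and *Mef2c* and *Smarcd3* each in 31 of 47 (66%). For *Gata5* the share was 36.8% (24.4% to 50.7%) against 0.698% of the rest, and for *Nkx2-5* it was 24.5% (13.8% to 38.3%) against 1.25%. Ratios of CPM ran from 8.61 (*Smarcd3*) to 45.9 (*Gata5*). The cells differ from gene to gene, 37 to 57 in number, and were still chosen on the other rule genes, so these values describe the rule and are no check on the label. Deeper cells hold more of every gene, so that the shares, unlike the CPM, also carry depth.

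The label was checked against 10 further FHF markers that the rule did not use, of which 9 had a row in the table. Of the 6 with enough UMIs to be compared, 5 stood at least 2 times higher in FHF cells and 0 lower, against 3.89% and 11.4% of all 9442 genes compared, and *Hand1*, at 208 CPM against 126, was the one within 2 times. Under the minimum of 100 UMIs and outside this count, the T-box factor *Tbx5*, which marks the first heart field and later the left ventricle, was counted 11 times in FHF cells and 11 times in all the others, 19.9 CPM against 0.555 (log2 ratio 5.17, 3.82 to 6.51). *Csrp3*, a muscle LIM protein of the Z-disc, also under the minimum, was counted 11 times against 5 (log2 ratio 6.30, 4.66 to 8.18). *Tnnc1*, cardiac troponin C, also under it, stood at 34.4 CPM against 4.04. Of the 6 compared, *Gata6* stood at 107 against 21.7. The label was kept on the count of 6, which sets the cells against the whole library. Against the *Hand1* and *Ahnak* mesenchyme described further on, whose rule 30 of the 62 cells also passed, *Gata4* stood past 2 times (log2 ratio 2.27), *Hand2* (0.98), *Gata6* (0.98), *Actc1* (0.72) and *Tbx20* (0.32) did not, and *Hand1* was lower (-1.20), so the label is not set apart from that mesenchyme by these markers. *Hand1* is a marker that chose the mesenchyme, so its value is bound to that choice. The mesenchyme was read without the 30 cells, which bears on all these ratios. The myosin heavy chains *Myh6* and *Myh7*, cardiac troponin I *Tnni3*, the ventricular light chain *Myl3* and the natriuretic peptides *Nppa* and *Nppb* had 0 UMIs in 62 cells, which allows a share of up to 4.84%. Limits of this kind, 3 cells of the total, cover cells with a UMI and not cells that express the gene. In the other EHF cells *Myh6* was counted 6 times, *Myh7* 5 times and *Tnni3* 48 times.

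Levels outside the rule were read on both sides of the threshold. Summed over the markers outside the rule, the level was 400 CPM in the 31 cells with 4 rule genes (324 to 487), 595 CPM in the 25 with 5 (497 to 707), 497 CPM in the 14 with 6 and 678 CPM in the 23 with 7 or more, against 172, 169, 368 and 418 CPM in cells with 0, 1, 2 and 3. *Cdkn1c* had 65.2 CPM with 0 rule genes, 196 with 4 (144 to 259), 401 with 5 (322 to 495), 369 with 6 and 597 with 7 or more. *Pmp22* had 214 CPM with 2, 276 with 3, 175 with 4 (127 to 236), 443 with 5 (359 to 541), 537 with 6 and 237 with 7 or more. For these 3 levels the intervals with 4 and with 5 rule genes did not overlap. *Hand2* had 61.2 CPM with 4 rule genes and 64.6 with 5, 56.1 with 6 and 71.1 with 7 or more, and *Bmp5* had 48.9 (25.3 to 85.5), 102 (63.6 to 154), 40.1 and 71.1, and here the intervals overlapped. They also overlapped for the contractile sum, at 705 CPM with 4 (604 to 819) and 895 with 5 (774 to 1030), for *Tbx20* (53 and 69.2) and for *Tmem88* (57.1 and 129). Median depth was 5364, 6494, 7894, 5969.5 and 7803 UMIs with 0, 4, 5, 6 and 7 or more genes.

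Over all genes outside the rule with at least 100 UMIs in the library, 9442 were compared. Of these, 367 (3.89%) stood at least 2 times higher in FHF cells and 1079 (11.4%) at least 2 times lower, and the median log2 ratio was -0.06. With 4 rule genes these counts were 279 and 1020, and with 6 they were 401 and 1173. They were 1063 and 586 in the 10 cells that passed after thinning to 2000 UMIs, and 617 and 637 in the 20 cells found with the rule on 0.5 of the UMIs and levels from the rest (the split), settings that also change the number of cells or of UMIs read. The whole interval lay above 2 times for 88 of the higher genes. Counts of 100 UMIs spread over the library put few of them in 62 cells, so that many single ratios are imprecise.

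The 20 genes with the largest ratios, among those found in at least 25% of FHF cells, ranged from 5.63 to 13 times higher. The foremost was *Bmp5*, a BMP ligand, at 76 CPM in FHF cells (54.8 to 103) and 5.85 CPM in the others (log2 ratio 3.70, 3.15 to 4.22). Next came *Wnt2*, a WNT ligand of the early heart field and its inflow, at 48.9 CPM against 3.99 (3.62, 2.93 to 4.26). *Hand2*, a bHLH factor of heart progenitors, stood at 65.2 CPM against 6.31 (3.37, 2.79 to 3.91), and *Tbx20*, a T-box factor of the heart, at 79.6 against 13.6 (2.55, 2.06 to 3.02). Ligands and transcription factors of heart formation were thus among the leading genes beside the contractile genes of the rule.

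Receptors, cytoskeletal and muscle proteins made up others of the 20. *Nrp1*, a co-receptor of VEGF and semaphorins, stood at 107 CPM against 11.7 and *Fgfr3* at 45.2 CPM against 7.47. *Irs1*, the adaptor of the insulin receptor, stood at 45.2 CPM against 6.41. *Cap2*, an actin-binding protein of striated muscle, stood at 43.4 CPM against 5.8, *Rbm24*, a splicing factor of muscle transcripts, at 48.9 against 6.56, and *Cryab*, a small heat shock protein of muscle, at 68.8 against 12.2. *P3h2*, a prolyl hydroxylase of collagen, stood at 76 CPM against 10.8, and *Asb4*, a subunit of ubiquitin ligases, at 107 against 17.5. Also among them were *Tmem108*, *Runx1t1*, *3632451O06Rik*, *Amph* and *Frmd6*, with log2 ratios from 2.56 to 3.13.

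The most abundant of the 20 were *Cdkn1c* and *Pmp22*. *Cdkn1c*, the imprinted cyclin-dependent kinase inhibitor p57, stood at 469 CPM (413 to 529) against 74.8 and was found in 91.9% of FHF cells and 26.2% of the others. After every cell was thinned to 2000 UMIs these shares were 64.5% and 12.1%, and in Exe ectoderm 12.4%. *Pmp22*, a membrane protein of myelin and of embryonic mesenchyme, stood at 386 CPM against 51.2 but was found in 54.8% of FHF cells, so it was divided among them.

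The 10 genes with the smallest ratios included genes of epithelia, of endoderm and of metal binding. *Cldn6*, a tight junction claudin, was counted 1 time in FHF cells, at 1.81 CPM against 116 (log2 ratio -6.00, -11.31 to -3.52). *Cdh1*, E-cadherin, stood at 5.43 CPM against 64.8, and *Epcam* at 10.9 against 124. The metallothioneins *Mt1* and *Mt2* stood at 29 CPM against 632 and at 12.7 against 472. *Tpd52* and *Chchd10* completed the list with the endoderm genes *Ttr*, *Spink1* and *Apoa1*. *Ttr*, transthyretin, stood at 47.1 CPM against 1168 but was found in 33.9% of FHF cells, 34% of the other cells and 35.8% of Exe ectoderm cells. *Spink1* was found in 45.2%, 42.5% and 43.7% of them, and *Apoa1* in 33.9%, 30.2% and 37.2%. These shares in FHF cells did not exceed those of Exe ectoderm by more than counting error, and the source of these UMIs was not tested.

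**Figure D3:**
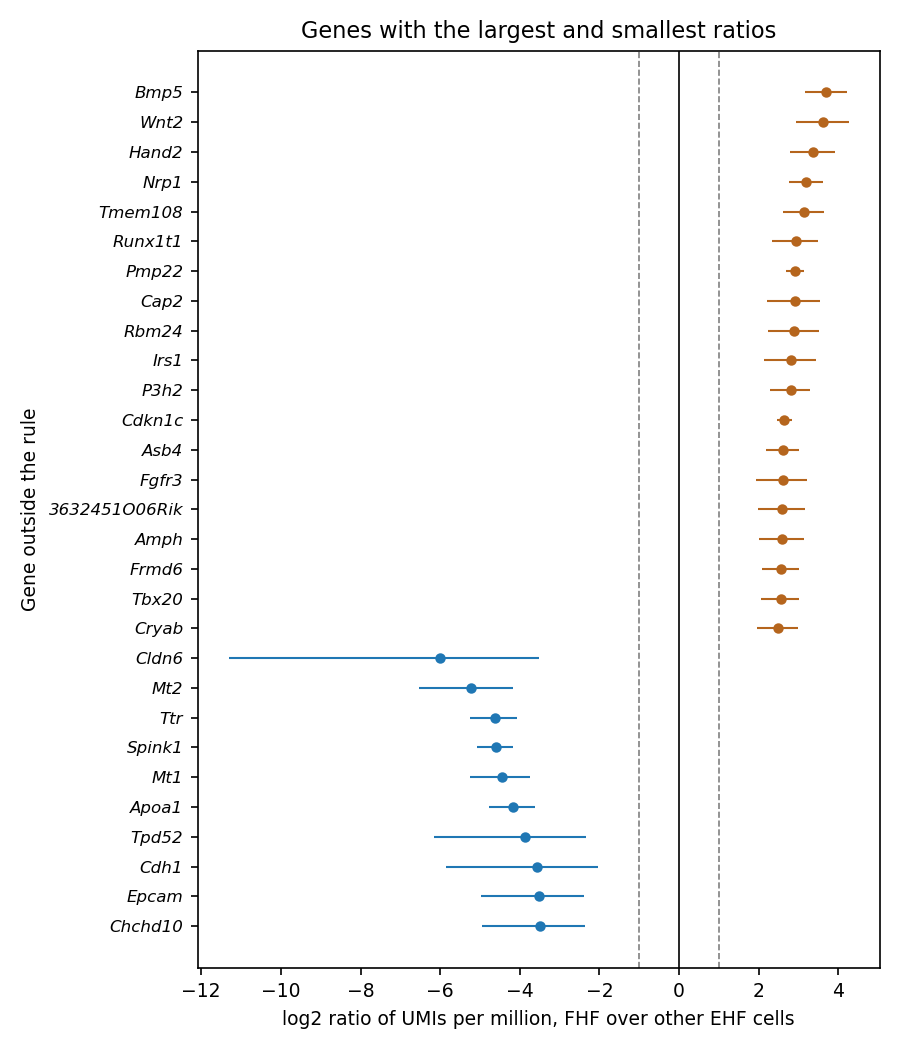
Log2 ratio of CPM in FHF cells over all other EHF cells (horizontal axis) for genes outside the rule with the largest ratios (brown) and the 10 with the smallest (blue), with exact 95% intervals; dashed lines mark a ratio of 2 either way. *Bmp5* leads at 3.70 and *Cldn6* stands lowest at -6.00.

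The genes of 22 lists were compared in the same way, each beside the median of -0.06 and the shares of 3.89% and 11.4% over all 9442 genes; the rule genes were left out of them. Of 11 contractile genes compared, 7 stood at least 2 times higher, 1 lower, and the median log2 ratio was 1.08, though 0.85 in the split and 0.92 as the mean of each cell's CPM, both under 2 times. *Tpm1*, a tropomyosin, was the most abundant at 396 CPM against 197, followed by the LIM protein *Csrp1* at 118 against 52.7. *Acta2*, smooth muscle actin, stood at 56.1 CPM against 12.2 and *Actc1*, cardiac actin, at 21.7 against 6.61 (log2 ratio 1.72, 0.73 to 2.57). *Tnnt1*, slow skeletal troponin T, was the lower one with 2 UMIs (-1.71, -4.76 to 0.16). Below the minimum of 100 UMIs, *Tnnt3* stood at 36.2 CPM against 3.68 and *Nebl*, nebulette of the Z-disc, was counted 8 times against 14. Of 29 genes with a row, 7 had 0 UMIs in FHF cells. Several of the higher genes were uneven between the groups of 45 and 17 FHF cells described further on. In the larger and the smaller group, *Acta2* stood at 17.1 and 124 CPM, *Tagln* at 2.85 and 74.5, *Csrp1* at 65.5 and 209 and *Cryab* at 42.7 and 114. For *Tpm1*, *Actc1* and *Des* the interval between these groups held 0. Against the other EHF cells the interval of *Des* also held 0 (-0.40 to 2.25).

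Of 3 genes of calcium handling and the cell membrane with enough UMIs to be compared, 0 stood past 2 times and the median was 0.28. The calcium pump gene *Atp2a2* stood at 145 CPM against 119 and the gap junction gene *Gja1* at 161 against 137. Among the 10 genes below the minimum, the ryanodine receptor *Ryr2* was counted 5 times against 8 (log2 ratio 4.49, 2.53 to 6.28) and *Popdc2* 17 times against 47 (3.70, 2.80 to 4.53). *Bves* was counted 7 times against 56 (2.17, 0.79 to 3.30), and the channel gene *Cacna1d* 1 time against 10 (1.84, -3.60 to 4.66). The channel gene *Kcnh2* was counted 2 times against 62 (0.21). The calcium channel gene *Cacna1c* had 0 UMIs in FHF cells.

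Among 17 cardiac transcription factors compared, 7 stood higher and 3 lower, with a median of 0.75. *Hand1* was the most abundant at 208 CPM against 126 (log2 ratio 0.72), and *Gata6* followed at 107 against 21.7 (2.30, 1.88 to 2.69). *Meis1* stood at 88.7 CPM against 16.9, *Gata4* at 48.9 against 12.9, and *Srf*, which binds promoters of actin genes, at 47.1 against 21.1. *Myocd*, a coactivator of SRF, was counted 3 times against 1 (6.75, 3.11 to 12.46). The 3 lower ones were *Irx3*, at 14.5 CPM against 49 (-1.76, -2.97 to -0.77), and *Hey1* (-1.82, -7.14 to 0.68) and the ventricular factor *Irx4* (-1.96, -7.28 to 0.54), each counted 1 time. *Hopx* was counted 0 times against 16. When the rule was applied to 0.5 of each cell's UMIs drawn at random and levels were read in the rest, the median of this list was 1.61.

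The second heart field list was mixed, with 4 genes higher and 4 lower of 12 compared and a median of -0.20. *Isl1*, a LIM homeobox factor of that field, stood at 43.4 CPM against 9.43 (log2 ratio 2.20, 1.52 to 2.82), and *Foxf1* at 74.2 against 24.2 (1.62, 1.12 to 2.08). *Fgf10* and *Jag1* were the other 2 higher ones, each at 1.54. *Hoxb1* stood at 21.7 CPM against 54.2 and *Aldh1a2*, the retinoic acid synthase, at 12.7 against 44.1, and *Tbx6* was lower as well. *Tbx1*, *Six2* and *Nr2f1* had 0 UMIs in FHF cells.

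Genes of the juxta-cardiac field and serosa, the mesoderm between the crescent and the extraembryonic tissue, had a median of 1.36, with 4 of 6 compared higher and 0 lower. With the rule applied after thinning to 2000 UMIs the median was 1.16, and that of cardiac transcription factors 1.44. *Hand1* was again the most abundant. *Ahnak* stood at 105 CPM against 31.4 (log2 ratio 1.74, 1.33 to 2.13), the ligand *Bmp4* at 103 against 34.7 (1.57, 1.16 to 1.96) and *Msx2* at 48.9 against 22. *Mab21l2*, a marker of this field, was counted 2 times in FHF cells and 4 times in the others. Of the 62 FHF cells, 30 also passed the marker rule of the *Hand1* and *Ahnak* mesenchyme described further on, and *Hand1*, *Ahnak*, *Bmp4*, *Msx1* and *Msx2* are among the markers of that rule.

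BMP pathway genes stood higher in 7 of 19 cases and lower in 0, with a median of 0.34. Of the ligands besides *Bmp5*, *Bmp2* stood at 59.7 CPM against 13.4 (log2 ratio 2.15, 1.59 to 2.68) and *Bmp4* as above, whereas *Bmp7* did not pass 2 times (18.1 CPM against 17.2). The receptors *Bmpr1a* and *Bmpr2* and the signal transducers *Smad1*, *Smad5* and *Smad4* lay between -0.01 and 0.34. Of the inhibitors that BMP signals induce, *Bambi* stood at 81.4 CPM against 33.1 (1.30, 0.83 to 1.73) and *Smad6* at 23.5 against 7.31, but *Smad7* at 7.24 against 7.16. *Bmper*, a secreted modulator, stood at 14.5 against 4.69 (1.63, 0.37 to 2.66). The secreted antagonists *Nog* and *Chrd*, under the minimum, were counted 2 times against 74 and 1 time against 73. Of the target genes, *Id3* was found in 98.4% of FHF cells at 556 CPM against 377, *Id1* stood at 181 CPM against 173, and *Id2* at 226 against 391.

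WNT pathway genes went both ways, with 6 of 25 higher and 7 lower and a median of -0.33. Inhibitors were among the higher genes. *Tmem88*, which binds Dishevelled, was the most abundant at 145 CPM against 26 (log2 ratio 2.48, 2.12 to 2.82) and was found in 61.3% of FHF cells against 11.6%. *Sfrp1*, a secreted inhibitor as is *Sfrp5* of the rule, stood at 68.8 CPM against 29.3, and *Dkk1* at 18.1 against 8.32 (1.12, 0.03 to 2.04). The secreted inhibitor *Sfrp2* stood at 7.24 CPM against 16.7 (-1.21, -3.09 to 0.16), an interval that holds 0. *Frzb*, at 30.8 against 46.2 (-0.59, -1.37 to 0.10), did not pass 2 times, and its interval holds 0 too. Other members of the list were *Lef1* at 47.1 CPM against 56.2 and *Axin2* at 12.7 against 18.8, with intervals that hold 0, *Nkd1* at 14.5 against 38.3 and *Sp5* at 3.62 against 26.5 (-2.87, -5.92 to -1.01). The streak ligand *Wnt3a* had 0 UMIs, a log2 ratio of at most -0.33.

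Of 15 FGF pathway genes, 2 stood higher and 4 lower, with a median of -0.33. This median was -0.97 with the thinned rule and -1.4 in the split. The receptor *Fgfr3* (log2 ratio 2.60) and the ligand *Fgf10* (1.54) were the higher pair, while *Fgfr1*, the most abundant, stood at 92.3 CPM against 82.5. The ETS factors *Etv4* and *Etv5*, targets of FGF signals, stood at 3.62 CPM against 24.1 and 10.9 against 29.6. Of 9 Notch pathway genes, 1 stood higher and 4 lower, with a median of -0.73. *Hes1* was the most abundant at 81.4 CPM against 58.9, *Jag1* was the higher one at 23.5 against 8.07, and the ligands *Dll1* and *Dll3* of the presomitic mesoderm were counted 3 times and 1 time. In the 10 cells that still passed after thinning to 2000 UMIs, the Notch median was 1.75, and in the split it was 0.38. It was -0.76 with 4 rule genes and -1.2 with 6. Without the deepest FHF cell it was -1.31, and as the mean of each cell's CPM -1.52. The cause of these shifts was not tested.

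*Smarcd3* chose the cells, so its level is no measure for the other genes of its complex. Of 17 BAF complex genes compared, 0 stood past 2 times in either direction and the median was 0.12. Over all 9442 genes the shares were 3.89% higher and 11.4% lower. *Smarcc1* stood at 197 CPM against 155, the ATPase *Smarca4* at 145 against 132, and the paralogues of *Smarcd3*, *Smarcd1* and *Smarcd2*, at 57.9 against 56.2 and 32.6 against 27.8. Below the minimum, *Dpf3*, a BAF subunit of heart and muscle, was counted 9 times against 41 (log2 ratio 2.98, 1.75 to 4.04).

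Of 19 genes of epithelial and mesenchymal character, 5 stood higher and 2 lower, with a median of 0.66. The keratins of simple epithelia were abundant, with *Krt18* at 1283 CPM against 420 and *Krt8* at 814 against 265, each in more than 96% of FHF cells. *Vim*, vimentin, stood at 262 CPM against 85.4 and the repressor *Snai2* at 27.1 against 4.54 (log2 ratio 2.58, 1.68 to 3.38), and *Twist1* at 14.5 against 5.7. The lower pair were *Cdh1* and *Epcam*, while *Cdh2*, N-cadherin, stood at 43.4 CPM against 27.5. FHF cells thus held keratins and vimentin together with almost no E-cadherin. *Krt8* and *Krt18* are also markers of the *Hand1* and *Ahnak* mesenchyme, whose rule 30 of the 62 cells passed. The keratins are thus not particular to FHF cells. In the groups of 45 and 17 FHF cells described further on, *Krt18* stood at 812 and 2105 CPM, *Krt8* at 561 and 1256 and *Vim* at 182 and 402.

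Among 15 genes of the extracellular matrix, 2 stood higher and 6 lower, with a median of -0.03, though -0.65 as the mean of each cell's CPM. *Vcan*, versican of the cardiac jelly, stood at 61.5 CPM against 15.6 (log2 ratio 1.98, 1.42 to 2.49) and *Fbn2*, fibrillin, at 47.1 against 11.7 (2.01, 1.36 to 2.60). The basement membrane genes *Col4a1*, *Col4a2*, *Nid1*, *Lama1* and *Hspg2* were lower, the first at 29 CPM against 84.1. *Sparc* was the most abundant at 275 CPM against 226. *Loxl1*, a lysyl oxidase, was counted 10 times against 19 (4.24, 2.97 to 5.42), under the minimum.

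Metabolic genes hardly differed. Of 23 genes of oxidative metabolism, 0 stood higher and 1 lower, with a median of -0.12, and the summed level was 13172 CPM against 14363. The lower one was *Fabp3*, a fatty acid carrier of the mature heart, at 7.24 CPM against 141 (log2 ratio -4.28, -6.16 to -2.92). Of 20 glycolysis genes, 0 stood higher and 2 lower, with a median of 0.04. *Ldha* led at 3401 CPM against 2694, and the lower pair were the glucose transporter *Slc2a3*, at 129 against 558, and the kinase *Pdk1*. Of 21 cell cycle genes, 1 stood higher and 2 lower, with a median of 0.03. The higher one was *Cdkn1c* and the lower ones *Cdkn1a* and *Cdkn2a*, whereas *Mki67* stood at 59.7 CPM against 58.6, *Top2a* at 250 against 208 and *Ccnd2* at 413 against 237. The level of p57 thus stood high, while *Mki67*, *Top2a* and *Ccnd2* lay within 2 times of their levels in the other cells.

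Of 11 streak genes compared, 0 stood higher and 7 lower, with a median of -1.59, which was under 2 times with 4 rule genes (-0.74) and in the split (-0.96). *T* stood at 27.1 CPM against 91 (log2 ratio -1.74, -2.58 to -1.02), *Mesp1*, the factor of nascent cardiac mesoderm, at 7.24 against 23.1 (-1.67, -3.56 to -0.31) and *Eomes* at 1.81 against 15.3. *Mixl1* and *Evx1* had 0 UMIs. Of 10 *Hox* and *Cdx* genes, 2 stood higher and 5 lower, with a median of -0.83. This median was past 2 times with 6 rule genes (-1.35), with the thinned rule (-1.43) and in the split (-1.85), but -0.66 with 4 rule genes. *Hoxb2* stood at 74.2 CPM against 36.8 and *Hoxd1* at 30.8 against 8.37, while *Cdx1* stood at 30.8 against 172 and *Cdx2* at 21.7 against 119.

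Markers of other cell types were read as a check on what the cells hold. Of 10 endoderm genes, 9 stood lower (median -3.42), and the summed level of 836 CPM was mostly *Apoe*, at 639 CPM against 1241, which is not confined to endoderm. Of 6 erythroid genes 5 stood lower (median -1.89, sum 25.3 CPM against 314), of 5 neuroectoderm genes 3 (median -1.97, sum 25.3 against 92.2), and of 10 Exe ectoderm genes all 10 (median -1.95, sum 39.8 against 302). These 3 medians hold 2, 1 and 5 bounds set by the floor, and without them were -2.36, -2.30 and -2.85. The erythroid median was -3.03 with the thinned rule and -4.51 in the split, and the endoderm median was -1.83 in the split. The neuroectoderm median was -0.70 with the thinned rule, -0.18 in the split and -0.78 without the highest doublet scores. The Exe ectoderm median was -0.51 with the thinned rule and -0.75 in the split. *Gata1*, *Sox1*, *Sox3*, *Cldn4* and *Wnt7b* had 0 UMIs in FHF cells. Of 6 endothelial genes 2 stood higher and 1 lower (median -0.50): *Etv2*, the factor of blood and endothelial progenitors, stood at 79.6 CPM against 30.5 (1.39, 0.91 to 1.83) and *Kdr* at 39.8 against 17.5, while *Cdh5*, *Pecam1*, *Tie1* and *Esam* had 0 UMIs. The endothelial median was 0.85 in the split, with the opposite sign. The *Etv2* UMIs lay in 21% of the FHF cells. The part of other cell types in these values was not tested.

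**Figure D4:**
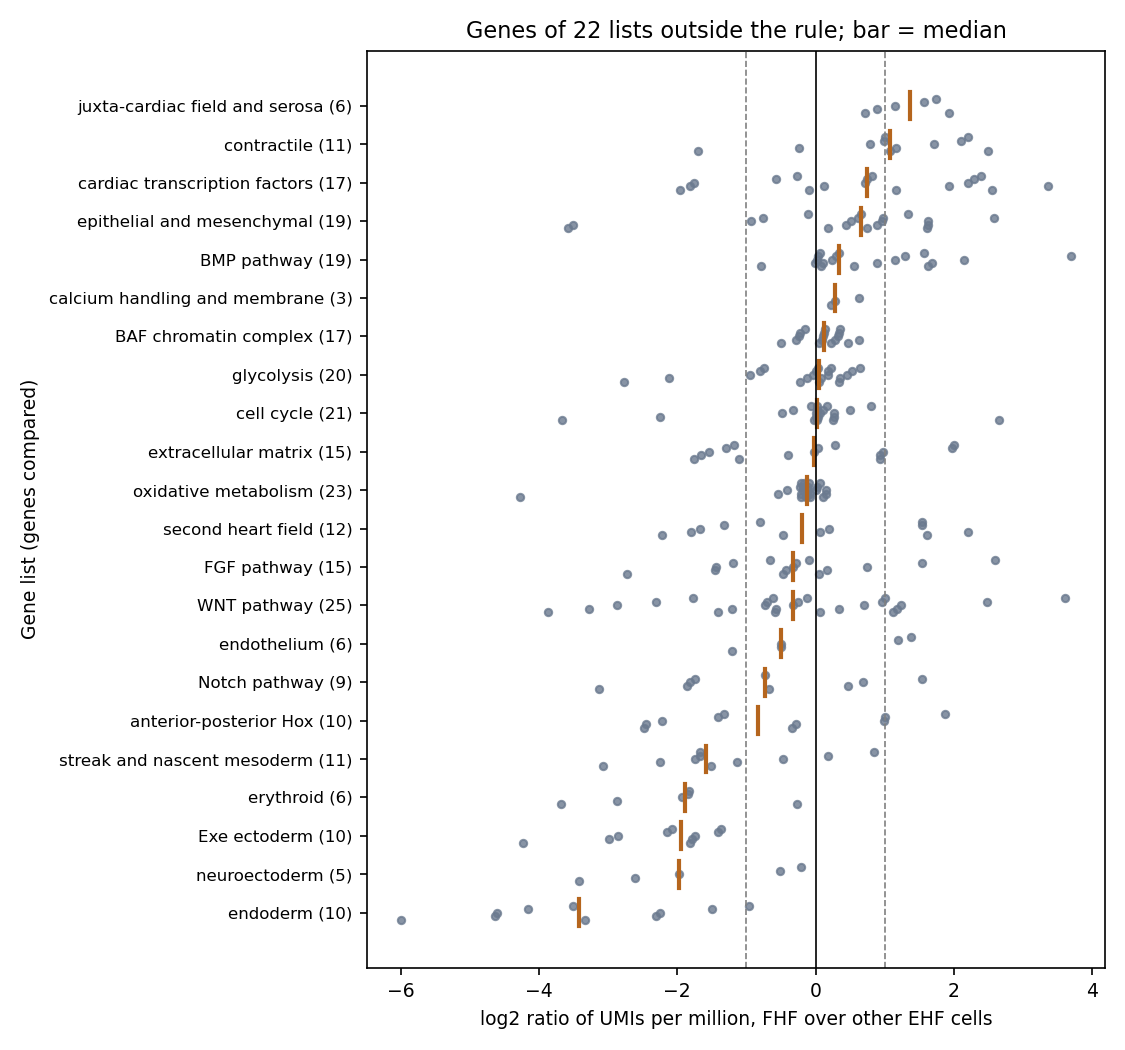
Log2 ratio of CPM in FHF cells over all other EHF cells (horizontal axis) for the genes of 22 lists (rows, with the number compared), with 1 point per gene and a bar at the median of the list; dashed lines mark a ratio of 2 either way. Medians run from 1.36 for the juxta-cardiac list to -3.42 for endoderm, and the median over all 9442 genes was -0.06.

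The reporter was read since the rule did not use it and since tamoxifen at E7+7h marks cells that express *T* from then on. The tdTomato transcript was found in 2 of 62 FHF cells (3.23%, 0.393% to 11.2%), with 5 UMIs and 9.05 CPM (2.94 to 21.1). It was found in 11.7% of the other EHF cells at 28 CPM (25.8 to 30.5) and in 1.41% of Exe ectoderm cells, which do not come from the streak, at 1.81 CPM (0.587 to 4.22). The interval of the share in FHF cells overlapped both that of Exe ectoderm (0.459% to 3.26%) and that of the other cells (10.6% to 12.8%). The level stood below the other cells (log2 ratio -1.63, -3.26 to -0.40), an interval that takes the 5 UMIs, found in 2 cells, as independent. After thinning to 2000 UMIs it was found in 1 of 62 FHF cells (1.61%, 0.0408% to 8.66%), 5.57% of the other cells (4.79% to 6.43%) and 0.282% of Exe ectoderm cells (0.00713% to 1.56%), and the interval of the FHF cells again overlapped both. At this depth a cell with the label can lack a UMI of it, so the shares are not shares of labelled cells.

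FHF cells were next set against 3 mesoderm populations of the same library, each chosen by at least 5 of 10 markers, without FHF cells. These were 89 cells of anterior cranial and pharyngeal mesoderm (median 6471 UMIs), 71 cells of somitic paraxial mesoderm (6355) and 312 cells of *Hand1* and *Ahnak* mesenchyme (6676.5), against 7413.5 in FHF cells. The anterior and somitic cells shared 14 cells, and the mesenchyme and Exe ectoderm shared 37. Of the 9442 genes, 71 (0.752%) stood at least 2 times higher in FHF cells than in all 3, and 324 (3.43%) at least 2 times lower. Against each alone, 844 stood higher and 860 lower than in anterior mesoderm, 817 higher and 998 lower than in somitic mesoderm, and 360 higher and 955 lower than in the mesenchyme.

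The genes that led over all 3 neighbours were in part those that led over the whole library, *Cdkn1c*, *P3h2*, *Cap2*, *Bmp5* and *Runx1t1*, and in part others. The foremost was *Mgarp*, a mitochondrial protein, at 52.5 CPM in FHF cells (35.2 to 75.4) and 7.62, 9.69 and 10.5 CPM in anterior mesoderm, somitic mesoderm and mesenchyme, a lowest log2 ratio of 2.32. *Gata4*, a zinc finger factor of heart mesoderm, stood at 48.9 CPM against 9.15, 9.69 and 10.1. *Cdkn1c* stood at 469 CPM against 62.5, 56.2 and 126 and was the most abundant of these genes. *Homer2*, a scaffold protein, stood at 72.4 CPM against 6.1, 11.6 and 20.2. *Isl1* stood at 43.4 CPM against 9.15, 5.81 and 15.8, and *Bmp5* at 76 against 10.7, 9.69 and 26.3. The other 4 of the 10, *P3h2*, *Mpped2*, *Cap2* and *Runx1t1*, had lowest log2 ratios from 1.40 to 1.91.

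Several leading genes of the whole library were shared with the mesenchyme. *Pmp22* stood at 386 CPM in FHF cells and 358 in the mesenchyme, for which it is a marker, against 16.8 in anterior and 23.3 in somitic mesoderm. *Tbx20* stood at 79.6 CPM in FHF cells and 63.7 in the mesenchyme, against 1.52 and 3.88. *Hand2* stood at 65.2 CPM and 32.9, against 6.1 and 5.81. With anterior mesoderm, FHF cells shared *Myl7* in part, at 264 CPM in that population (693 in FHF cells), which was found in 65.2% of its cells. *Mesp1* stood at 61 CPM in anterior and 98.8 CPM in somitic mesoderm against 7.24 in FHF cells, and tdTomato was found in 20.2% and 54.9% of their cells. In the mesenchyme tdTomato was found in 11.2% of cells (7.94% to 15.3%), an interval that overlapped that of FHF cells (0.393% to 11.2%).

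The 62 cells were clustered on variable genes outside the rule, which gave 45 cells (median 7170 UMIs) and 17 cells (median 9123). All 17 of the smaller group and 13 of the larger passed the marker rule of the *Hand1* and *Ahnak* mesenchyme. The smaller group was led by *Crip2*, a LIM protein, at 228 CPM against 17.1 in the larger (log2 ratio 3.74, 2.51 to 5.26), *Tmem108*, *Ezr*, *Acta2* and *Pmp22*, the last at 849 CPM against 120. The larger was led by *Id2*, at 313 CPM against 74.5 (2.07, 1.29 to 2.96), *Meis1*, *Tex30*, *Ccdc25* and *Nop9*. These genes were open to the clustering and were ranked in the same cells, so their ratios can follow from it. The same holds for *Hand1* and *Isl1* below, and the intervals do not cover this. *Nkx2-5*, held out of the clustering, was counted 30 times in the larger and 1 time in the smaller group, 85.4 CPM (57.6 to 122) against 4.97 (0.126 to 27.7). *Mef2c*, likewise held out, stood at 328 CPM against 124. Both are rule genes that chose the 62 cells, so their levels within the 62 are bound to the rule and lend the groups no support. *Hand1* stood at 74 CPM in the larger and 442 in the smaller group. *Isl1* was counted 24 times in the larger and 0 times in the smaller, at least 4.59 times higher. The division did not hold as a number of groups: a resolution of 1 gave 5 groups, and after thinning to 2000 UMIs there was 1. At a resolution of 1 the 17 cells of the smaller group lay in 1 group, with 2 cells of the larger.

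**Figure D5:**
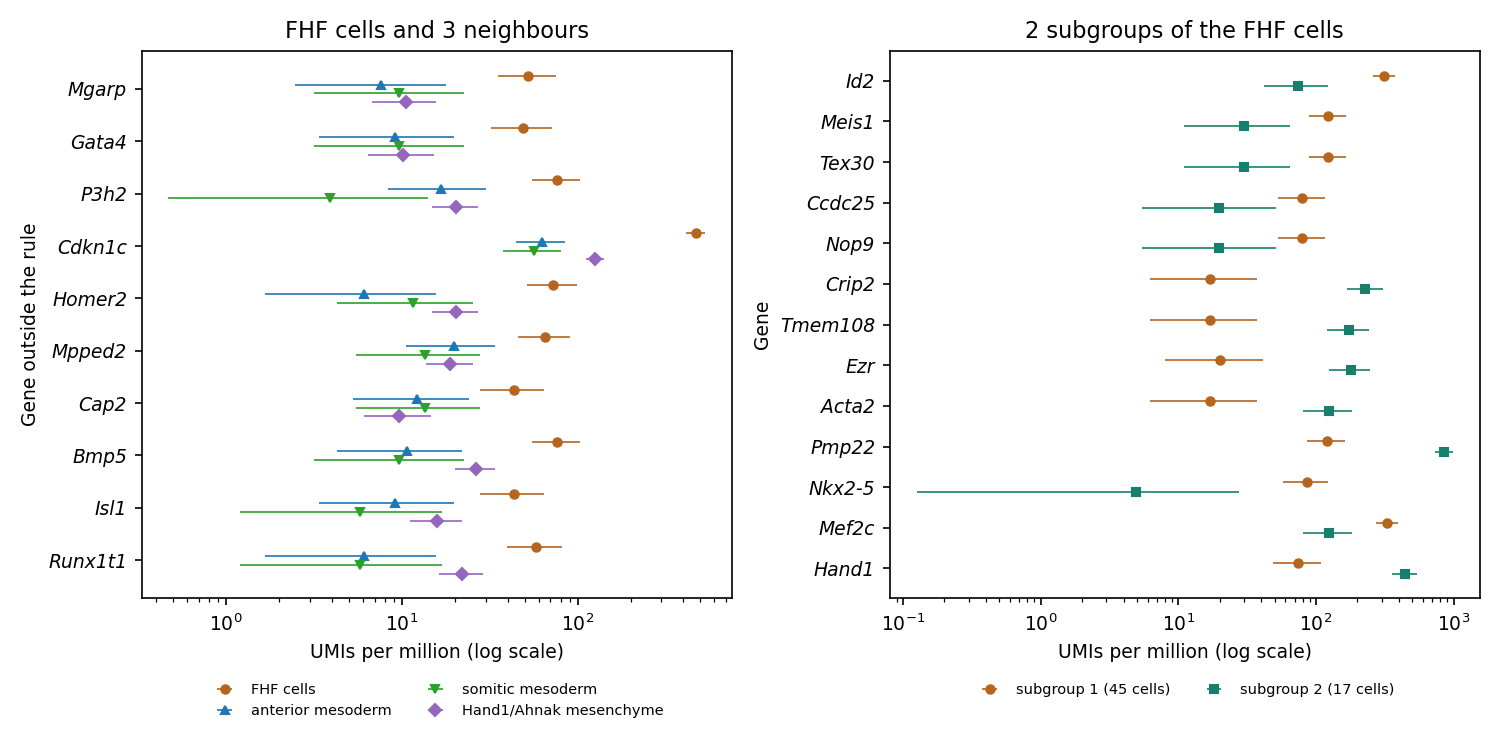
CPM (horizontal axes, log scale) with exact Poisson 95% intervals. Left, the 10 genes outside the rule that led over all 3 neighbouring populations, *Mgarp* to *Runx1t1*. Right, the leading genes of the groups of 45 and 17 FHF cells with *Hand1* and the rule genes *Nkx2-5* and *Mef2c*. *Nkx2-5*, one of the genes that chose the cells, stood at 85.4 CPM in the larger and 4.97 in the smaller group.

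A division without clustering was made by the mesenchyme's markers alone, after the values above had been seen. The 30 FHF cells that passed that rule had a median of 8599 UMIs and the other 32 a median of 6449.5. *Nkx2-5* was counted 2 times in the 30 cells and 29 times in the 32, 6.27 CPM (0.76 to 22.7) against 124 (83.1 to 178), a log2 ratio of -4.31 (-7.42 to -2.32). It was found in 6.67% of the 30 cells, the deeper ones, and in 62.5% of the 32. Of the remaining rule genes, *Myl7* stood at 656 CPM against 744, *Tnnt2* at 132 against 124, *Tnni1* at 116 against 111 and *Gata5* at 72.1 against 51.3, and *Rgs5* showed the next largest gap whose interval did not hold 0 (-0.65, -1.25 to -0.05). These genes chose the 62 cells, and a cell without one of them must hold others, so their levels within the 62 are bound to the rule and lend the division no support.

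Genes outside both marker sets divided with it to different degrees. *Id2* stood at 119 CPM in the 30 cells and 372 in the 32 (log2 ratio -1.64, -2.23 to -1.08), *Sfrp1* at 34.5 against 116 (-1.74, -2.90 to -0.68), *Isl1* at 22 against 72.7 (-1.73, -3.24 to -0.38) and *Cdkn1c* at 364 against 612 (-0.75, -1.12 to -0.39). *Foxf1*, a forkhead factor of lateral plate mesoderm, stood at 116 CPM against 17.1 (2.76, 1.28 to 4.71), *Crip2* at 154 against 12.8 (3.58, 1.95 to 5.91) and *Slc2a1* at 540 against 154 (1.81, 1.28 to 2.37). *Bmp5* (78.4 CPM against 72.7) and *Hand2* (69 against 59.9) were level. *Rbm24* had 26 UMIs against 1 between the clustered groups but 12 against 15 here, so that gap was not seen in this division. Each of these was found on both sides: *Id2* in 60% of the 30 cells and 75% of the 32, *Slc2a1* in 80% and 62.5%, *Isl1* in 16.7% and 43.8%, *Foxf1* in 66.7% and 12.5% and *Crip2* in 60% and 9.38%.

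Pooling and doublets were looked at once. Of the FHF cells with a sex-linked call, 8 had only Y-linked UMIs and 41 only *Xist*, 16.3% (7.32% to 29.7%) against 14.3% in the other cells. Free RNA of the pool can place such UMIs in a cell, and its part was not tested. Doublets were kept. Scrublet called 13 of 3494 cells (0.372%), and 3 FHF cells (4.84%) lay among the 180 cells with the highest scores.

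Cells passing the rule were found at 1 stage only. They were 0 of 3635 in MS-LS, which allows a share of up to 0.0825%, 0 of 3994 in OB-EB (up to 0.0751%) and 62 of 3494 in EHF. The OB-EB table had a row for 9 of the 10 rule genes, so 5 of 9 were asked there. The most rule genes in any cell was 4 at both earlier stages, in 1 MS-LS and 5 OB-EB cells. With every cell thinned to 1500 UMIs and shallower cells left out, 4 of 3329 EHF cells passed (0.120%, 0.0327% to 0.307%) and 0 of 3534 and 0 of 3588 of the earlier ones (up to 0.0849% and 0.0836%), limits that lie within the EHF interval. Thinning to 2000 UMIs left 10 of 3185 EHF cells (0.314%, 0.151% to 0.577%) and again 0 of 3404 and 0 of 2939 (up to 0.0881% and 0.102%), limits below the EHF interval.

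Over whole libraries the rule genes did not share one course. *Myl7* stood at 86.2 CPM in MS-LS, 191 in OB-EB (183 to 199) and 65 in EHF (61.6 to 68.6), highest at the middle stage. *Tnnt2* stood at 0.167, 0.903 and 8 CPM, *Myl4* at 0.668, 1.4 and 5.59, and *Mef2c* at 1.34, 5.25 and 14.9, each highest in EHF. *Smarcd3* went from 1.34 to 3.86 and 19.9 CPM, and *Nkx2-5* from 0.39 to 0.246 and 3.78. *Sfrp5* stood at 4.01, 1.23 and 3.44 CPM, lowest at the middle stage. Outside the rule, *Bmp5* stood at 0.334, 2.3 and 7.75 CPM and *Hand2* at 1.73, 4.27 and 7.9. Each stage was a separate library with its own makeup of cells, so fewer cells of a type and less RNA per cell cannot be told apart here.

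Promoters of 17 genes, the 10 of the rule and 7 others named here, were searched for letters of heart factors, as a description of their sequence. The window was the 250 bases before the start in the RefSeq table of GRCm38.p6, on both strands, and all 17 genes had an entry. The CArG box, bound by SRF, was in the promoters of *Myl7* and *Actc1* and in 1.47% of all 32851 promoters. AGATAA, of GATA factors, was in those of *Tnnt2*, *Sfrp5*, *Rgs5* and *Hand2* and in 9.99% of all. AAGTG, of NK2 factors, was in 7 of the 17 genes and 40.7% of all promoters, AGGTGT, of T-box factors, in 3 and 11.8%, and CATTCC, of TEAD factors, in 5 and 12.6%. A gene was counted when any of its promoters held the letters, and *Mef2c* had 3 promoters and *Tnnt2*, *Tnni1* and *Csrp3* 2 each, so that these counts of genes are not like units with the shares of promoters. Printed are the pair with the rarest motif and 3 with AGATAA, as examples of a structural gene, a secreted inhibitor, a signalling regulator and a transcription factor. Capitals mark the match, which overlaps no match of the other motifs. *Myl7* is at chr11:5898783-5899032 (minus strand), *Actc1* at chr2:114052876-114053125 (minus), *Sfrp5* at chr19:42202253-42202502 (minus), *Rgs5* at chr1:169655251-169655500 (plus) and *Hand2* at chr8:57320733-57320982 (plus), each written 5′ to 3′ along its gene.
Myl7: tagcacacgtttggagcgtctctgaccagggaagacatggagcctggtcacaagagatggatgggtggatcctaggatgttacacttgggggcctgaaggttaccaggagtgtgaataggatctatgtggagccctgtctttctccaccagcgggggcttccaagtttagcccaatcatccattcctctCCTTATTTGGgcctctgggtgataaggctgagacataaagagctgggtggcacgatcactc
Actc1: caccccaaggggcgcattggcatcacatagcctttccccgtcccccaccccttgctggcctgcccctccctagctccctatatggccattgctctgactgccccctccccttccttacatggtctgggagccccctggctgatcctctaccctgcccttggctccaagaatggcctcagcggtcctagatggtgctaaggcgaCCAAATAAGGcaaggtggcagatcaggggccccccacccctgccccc
Sfrp5: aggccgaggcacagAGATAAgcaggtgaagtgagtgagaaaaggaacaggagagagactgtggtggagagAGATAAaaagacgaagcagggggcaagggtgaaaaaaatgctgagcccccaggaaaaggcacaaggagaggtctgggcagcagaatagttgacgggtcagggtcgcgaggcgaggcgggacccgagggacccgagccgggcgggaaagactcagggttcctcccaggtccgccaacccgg
Rgs5: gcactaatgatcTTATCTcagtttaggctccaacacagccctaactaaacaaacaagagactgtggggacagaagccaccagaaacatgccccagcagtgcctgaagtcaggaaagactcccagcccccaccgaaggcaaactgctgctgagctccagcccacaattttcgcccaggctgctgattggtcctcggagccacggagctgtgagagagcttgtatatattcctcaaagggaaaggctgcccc
Hand2: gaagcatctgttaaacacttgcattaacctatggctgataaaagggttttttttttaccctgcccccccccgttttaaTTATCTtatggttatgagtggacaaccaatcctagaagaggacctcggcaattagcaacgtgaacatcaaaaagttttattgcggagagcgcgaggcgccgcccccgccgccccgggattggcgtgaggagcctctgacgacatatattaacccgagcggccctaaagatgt
The CArG box lay 52 to 61 bases before the start of *Myl7* and 38 to 47 bases before that of *Actc1*. The nearest AGATAA lay 175 to 180 bases before the start of *Sfrp5*, which had 2, and 233 to 238 and 167 to 172 bases before those of *Rgs5* and *Hand2*, on the opposite strand. A match is a run of letters and not a bound site. Beside these promoters, *Myl7* stood at 693 CPM in FHF cells, *Rgs5* at 179, *Hand2* at 65.2, *Sfrp5* at 63.3 and *Actc1* at 21.7, so that promoters with the same letters belonged to genes of quite different levels.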

How the data were processed

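UMI counts per gene and cell, deposited by the authors without normalization, were taken as they are. They had been made with Cell Ranger 3.0.2 on GRCm38 plus the reporter, after a filter on genes, UMIs and mitochondrial share. R 3.6.1 and Seurat 3 are named in the submitters' processing notes. All deposited cells were used. Here, counts were summed over cells and divided by all UMIs of the group. A group at 0 was set to a floor of 3 UMIs, which gives a bound, a share of 0 cells is given with what 3 cells would make, and no ratio is given where both groups lie at or under it. Shares were read as deposited and after thinning to 2000 UMIs (1500 across libraries). FHF cells were clustered by Leiden (resolution 0.5) on 500 variable genes and 10 components of log-normalised counts (scale factor 10000). Named genes were the rule genes, the reporter, *T* and *Mesp1*, the 20 largest ratios (a UMI in at least 25% of FHF cells), the 10 smallest (in at least 25% of the others), the 10 leading over all 3 neighbours, list members of high or 0 count, and 5 leading genes per subgroup, without mitochondrial, ribosomal, sex-linked, haemoglobin and vector features in the rankings. List genes under the minimum or named for their ratio, and genes of the division by mesenchyme markers, were picked with their values in view. The members and lists were chosen with earlier results of these data known. Steps were tested on simulated data. Python 3.11.15, numpy 2.4.6, scipy 1.17.1, scanpy 1.11.5 and matplotlib 3.10.9 were used. Some genes are not reported here.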

Additional observations from a re-analysis of the deposited data

How the results depend on the processing

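The number of FHF cells was 93 with 4 rule genes and 37 with 6, against 62 with 5. It was 10 when cells were first thinned to 2000 UMIs and 20 when the rule read 0.5 of the UMIs drawn at random and levels came from the rest (the split). With 5 of 9 genes it was 37 without *Myl7*, 44 without *Rgs5* and 47 without *Mef2c* or *Smarcd3*, alternatives chosen after seeing the data. Genes at least 2 times higher and lower, 367 and 1079, were 1063 and 586 in the thinned choice, 617 and 637 in the split, 59 and 276 with a minimum of 500 UMIs, 53 and 347 at 4 times, 88 and 180 with the whole interval past 2 times, and 1783 higher with no minimum, since fewer cells, other minimums and stricter limits change what can pass. List medians moved to 1.44 (thinned) and 1.61 (split) for cardiac transcription factors, 1.75 (thinned) for Notch, 0.41 (thinned) for the cell cycle, -1.83 (split) for endoderm, and -0.51 (thinned) and -0.75 (split) for Exe ectoderm. The share of FHF cells with tdTomato, 1.61% at 2000 UMIs, was 0 at that depth with 6 rule genes and 0 when thinned to 1500 UMIs. Subgroups numbered 5 at resolution 1 and 1 after thinning. EHF cells passing the rule were 1.77% without thinning and 0.314% at 2000 UMIs, against 0.120% at 1500. Where no construction above accounts for a shift, the cause was not tested. Of 263 alternatives over 31 results, 231 were labelled the same, 32 moved and 0 reversed a median called at 2 times or more. The same meant within the main interval, or within 1.5 times of a count. For list medians, 198 of the 263, that interval ran from the median of the genes' lower limits to the median of their upper limits. It is not an error of the median and can be wide (Notch -2.66 to 0.76). The 191 list alternatives labelled the same are thus no measure of stability. Medians under 2 times changed sign for Notch (-0.73, against 1.75 thinned and 0.38 in the split) and endothelium (-0.50, against 0.85 in the split), among others.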
